A study of Mus musculus with 154 samples.

Results

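Liver RNA levels of 8 genes that respond to glucocorticoids and cellular stress were examined in chromosome substitution mice. The genes were Mt1, Mt2, Cdkn1a, Ddit4, Tsc22d3, Fkbp5, Sgk1 and Igfbp1. They were taken by symbol from a table of read counts, in which all 8 were found among 13289 genes. The rule used no measured value, although earlier results of these data were known when the genes were chosen. The table covered mice of 24 strains, all listed as male. C57BL/6J (B6) was the control (n = 20). The 8 single chromosome substitution strains (CSSs) were heterozygous for an A/J-derived chromosome on a B6 background and comprised 63 mice. Each single CSS had 8 mice, except (B6 x B6.A5)F1 with 7. The 15 double CSSs were heterozygous for a pair of A/J-derived chromosomes and comprised 71 mice, with 3 to 6 per strain. Strain names give the dam first, so (B6.A6 x B6.A8)F1 had A/J chromosome 6 from its dam and A/J chromosome 8 from its sire. Chromosomes 3, 6, 14 and 17 came only from dams and chromosomes 4, 5, 8 and 10 only from sires, so the parent of origin and the chromosome cannot be told apart. Mice of every strain were 5 weeks old, were fasted overnight, and were under isoflurane with a retro-orbital bleed before euthanasia. The caudate lobe was collected, so no mouse was unfasted or unhandled.

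Glucocorticoids, in mice mainly corticosterone, bind the receptor encoded by Nr3c1, which moves to the nucleus and turns on genes near glucocorticoid response elements. In liver the hormone rises with fasting, handling and the time of day and promotes glucose output. Several targets act back on the pathway or on growth. Fkbp5 encodes FKBP51, a co-chaperone that lowers the hormone affinity of the receptor. Tsc22d3 encodes GILZ, a leucine zipper protein that mediates anti-inflammatory actions of the hormone, and Sgk1 encodes a kinase of ion transport and survival. Ddit4 encodes REDD1, an inhibitor of mTORC1, and Cdkn1a encodes the cell cycle inhibitor p21. Igfbp1 encodes a secreted protein that binds insulin-like growth factors and is repressed by insulin. Mt1 and Mt2 encode metallothioneins, small cysteine-rich proteins that bind zinc and copper and are induced by metals, glucocorticoids and inflammation.

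Mt1 (ENSMUSG00000031765) and Mt2 (ENSMUSG00000031762) lie next to each other on the forward strand of chromosome 8, at chr8:94179082-94180327 and chr8:94172664-94173568. All coordinates are GENCODE vM21 positions on GRCm38. Their chromosome was substituted in the single CSS for chromosome 8 and in 4 double CSSs. Cdkn1a (ENSMUSG00000023067, chr17:29090976-29100727, forward strand) and Fkbp5 (ENSMUSG00000024222, chr17:28399094-28517527, reverse strand) lie on substituted chromosome 17. Ddit4 (ENSMUSG00000020108, chr10:59949669-59951834, reverse strand) and Sgk1 (ENSMUSG00000019970, chr10:21882184-21999903, forward strand) lie on substituted chromosome 10. Tsc22d3 (ENSMUSG00000031431, chrX:140539528-140600659, reverse strand) and Igfbp1 (ENSMUSG00000020429, chr11:7197782-7202546, forward strand) lie on chromosomes that were B6-derived in every strain. A test on a gene's own substituted chromosome is called cis below, and any other test trans.

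Promoter windows were searched for elements of the kinds known to control such genes, and those of the 4 genes below are printed because they hold the matches. Each window holds the 250 bases before a RefSeq transcription start in GRCm38.p6, and 16 windows covered the 8 genes. The motifs were searched on both strands. A glucocorticoid response element was searched as AGAACA and TGTTCT with any 3 bases between them, the core of a metal response element as TGCACNC or TGCGCNC, and an insulin response sequence, which FOXO factors bind, as CAAAACAA. Of 32851 windows of all genes, 3 (0.00913%) held the first motif, 7032 (21.4%) the second and 2.21% the third. The letters printed are the B6 reference and capitals mark the motif matches. The glucocorticoid response element was found in 1 of the 6 Sgk1 windows (chr10:21993640-21993889, forward strand), 189 to 175 bases before that start:
Sgk1: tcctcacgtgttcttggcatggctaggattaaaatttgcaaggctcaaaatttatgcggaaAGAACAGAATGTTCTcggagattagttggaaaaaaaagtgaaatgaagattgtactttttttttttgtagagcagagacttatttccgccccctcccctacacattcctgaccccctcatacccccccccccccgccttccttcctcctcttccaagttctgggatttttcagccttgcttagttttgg
The insulin response sequence was found in Igfbp1 (chr11:7197537-7197786, forward strand), starting 108 bases before its start:
Igfbp1: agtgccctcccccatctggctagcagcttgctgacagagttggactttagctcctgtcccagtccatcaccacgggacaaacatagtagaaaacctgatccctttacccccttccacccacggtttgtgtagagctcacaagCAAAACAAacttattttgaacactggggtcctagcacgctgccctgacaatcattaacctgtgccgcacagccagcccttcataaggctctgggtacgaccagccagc
The metallothionein windows (chr8:94178839-94179088 and chr8:94172368-94172617, forward strand) held 1 and 3 metal response cores, and 415 of all windows (1.26%) held 3 or more:
Mt1: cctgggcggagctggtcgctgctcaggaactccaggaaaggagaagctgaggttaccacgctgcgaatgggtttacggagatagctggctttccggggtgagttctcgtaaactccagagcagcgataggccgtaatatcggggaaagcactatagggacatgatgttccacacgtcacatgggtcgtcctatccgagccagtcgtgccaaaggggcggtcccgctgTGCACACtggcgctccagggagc
Mt2: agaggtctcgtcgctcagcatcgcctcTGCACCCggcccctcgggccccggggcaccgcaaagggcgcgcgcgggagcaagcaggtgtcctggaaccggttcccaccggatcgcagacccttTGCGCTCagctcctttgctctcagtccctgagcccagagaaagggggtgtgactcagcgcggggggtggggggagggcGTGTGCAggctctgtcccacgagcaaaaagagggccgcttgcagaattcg
A single metal response core was also found in Ddit4, whose window is not printed. A match is a description of the letters in the window, and many functional elements lie outside it or differ from these letters.

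The counted reads per mouse lay between 4638701 and 30465477 (median 16116424), and each of the 8 genes had at least 15 counts in every mouse. Levels are given as CPM, counts scaled to the library size after TMM normalization, and as log2 CPM with a prior count of 2. The labelled tissue matched its markers: the summed level of 5 hepatocyte genes (Alb, Apoa1, Ttr, Serpina1a and Cps1) was 45222 to 144118 CPM per mouse. It was 10.9 to 49.2 CPM for 4 leukocyte genes and 2.64 to 9.35 CPM for 3 cholangiocyte genes. Markers of other cells, 5 genes each, had 110.5 to 753 CPM (erythroid), 205.5 to 547 (Kupffer), 232.8 to 338 (endothelial) and 224.5 to 398 (stellate). A mouse of (B6.A14 x B6.A4)F1, E733, had a summed level of 19.97 CPM over 6 Y-linked genes, whereas every other mouse had at least 205 CPM, and results that changed without it are given with both values. The flow cell of each library was not given and could not be entered as a batch.

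Metallothioneins had the highest levels per length, with a mean over mice of 222 CPM per kilobase of exon for Mt2 and 209 for Mt1. Cdkn1a had the lowest mean, with 3.29. Between these lay Igfbp1 with 130 CPM per kilobase, Tsc22d3 with 34.9, Fkbp5 with 10.6, Ddit4 with 9.10 and Sgk1 with 7.88. Individual mice differed widely. Ddit4 ranged from 2.71 to 117.02 CPM (43.1-fold), Igfbp1 from 22.2 to 783 CPM (35.3-fold) and Cdkn1a from 2.29 to 51.7 CPM (22.5-fold). The range was narrowest for Sgk1, from 17.4 to 101.8 CPM (5.84-fold), and Fkbp5, from 32.4 to 227 CPM (6.99-fold). Mt1 ranged from 49.9 to 587 CPM, Mt2 from 26.7 to 353 CPM and Tsc22d3 from 40.2 to 308 CPM.

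**Figure D1:**
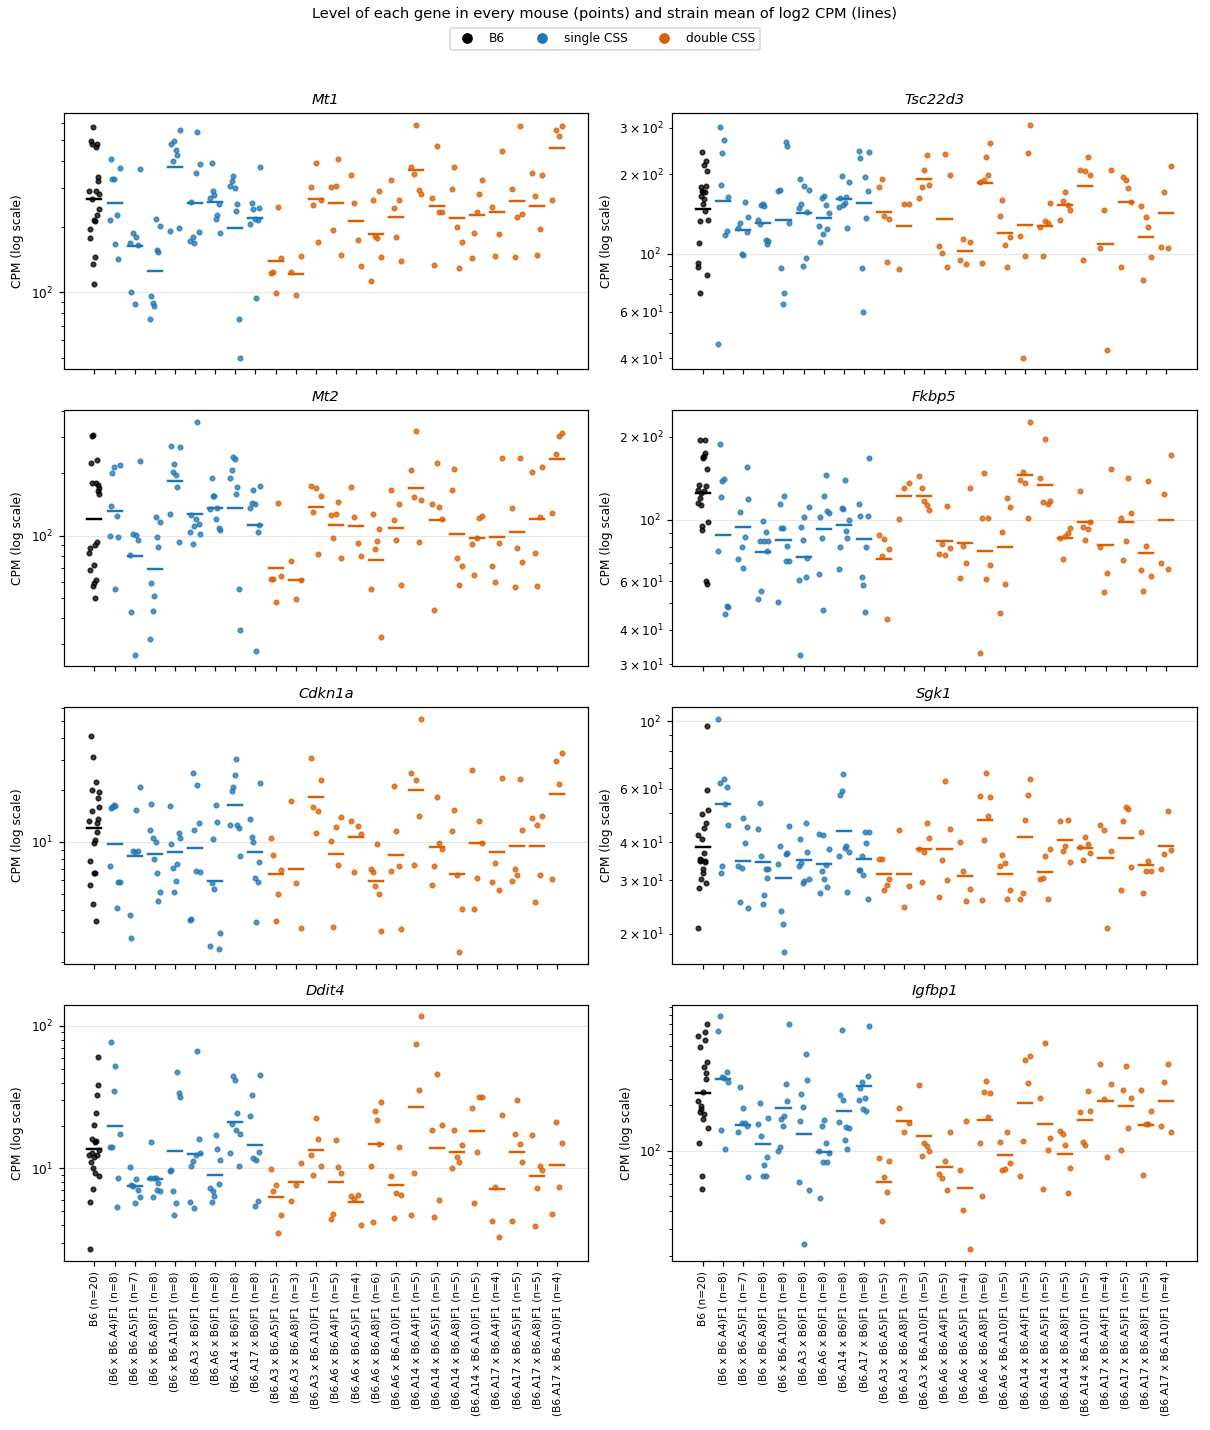
Level of each gene in every mouse (points, CPM on a log10 axis) by strain, with the strain mean of log2 CPM marked. Mice of a single strain spread over much of the range of all strains: in B6 alone Ddit4 ran from 2.71 to 60.2 CPM and Igfbp1 from 56.0 to 693.8 CPM.

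Most of this spread lay between mice of the same strain. The within-strain SD of log2 CPM was 0.96 for Ddit4, 0.86 for Igfbp1 and Cdkn1a, 0.72 for Mt2, 0.62 for Mt1, 0.54 for Tsc22d3, 0.49 for Fkbp5 and 0.38 for Sgk1. The median over all 13289 genes was 0.227. In the order of all genes by this SD, Ddit4 stood at the 99.5th percentile and Sgk1 at the 78.8th. Differences between strains made up 14.2% of the sum of squares of Tsc22d3 and 37.9% of that of Igfbp1, with the other 6 genes between these values and a median of 25.9% over all genes. The 24 strain means of log2 CPM spanned 2.39 for Igfbp1, 2.22 for Ddit4, 1.94 for Mt2, 1.92 for Mt1, 1.76 for Cdkn1a, 1.02 for Fkbp5, 0.91 for Tsc22d3 and 0.81 for Sgk1. With the strains ordered by mean, each of the 23 gaps between neighbours was smaller than the within-strain SD for every gene, which with so many ordered means is a description and no test of the strains. (B6.A6 x B6.A5)F1 had the lowest mean of Ddit4, Tsc22d3 and Igfbp1, and (B6.A14 x B6.A4)F1 the highest mean of Cdkn1a, Ddit4 and Fkbp5. B6 ranked between 3rd and 10th from the highest strain.

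The first question of the design was whether strain affected each gene at all. In edgeR's joint quasi-likelihood test of all 23 strain coefficients, with Benjamini-Hochberg adjustment over all genes, 7 of the 8 genes passed an adjusted p of 0.05, where 51.4% of all genes passed. The adjusted p was 7.78e-07 for Igfbp1, 1.57e-06 for Ddit4, 0.000122 for Mt1, 0.000935 for Sgk1, 0.00155 for Fkbp5, 0.0141 for Cdkn1a and 0.0366 for Mt2. Tsc22d3 did not pass (adjusted p = 0.0698). The call for Mt2 was lost when the whole fit was repeated without mouse E733 (adjusted p = 0.0547). That for Cdkn1a was lost with 10 in place of 5 surrogate variables (adjusted p = 0.109). Each double CSS mouse was also left out in turn, with dispersions and surrogate variables kept. The Cdkn1a call was then lost without E744 (adjusted p = 0.0759). The Mt2 call was lost without E141, E506, E623 or E688 (adjusted p up to 0.0586) and held without E733. Tsc22d3 was called when any of the 6 mice E232, E290, E297, E520, E679 and E732 was left out (adjusted p down to 0.0287).

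Main effects of single substitutions were mostly decreases. A main effect is the log2 fold change of a single CSS against B6 in a model that also holds the interactions, and all 8 main effects share the same 20 B6 mice. Of 64 combinations of gene and substitution, 11 (17.2%) were called at an adjusted p under 0.05, in 5 genes, beside 11.1% of all combinations of all genes. Of the 11 calls, 10 were decreases, and 50 of the 64 estimates were below 0. The only called increase was that of Sgk1 with chromosome 4. For all genes, the median estimate of each substitution lay between -0.010 (chromosome 8) and 0.0047 (chromosome 17). Among all genes called with chromosome 8, 56.4% were lower. Of all genes, 3.7% were called with chromosome 3, 13.5% with chromosome 4, 8.09% with chromosome 6, 6.64% with chromosome 10, 22.5% with chromosome 14 and 3.67% with chromosome 17.

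**Figure D2:**
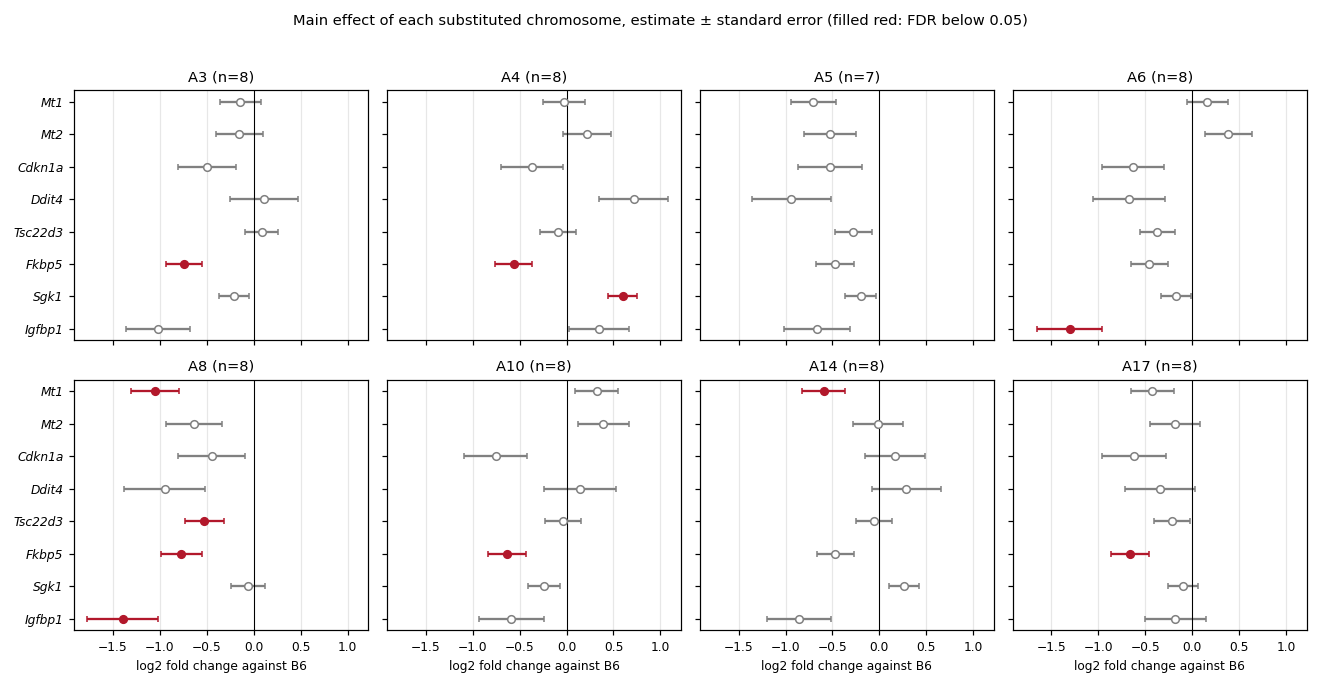
Main effect of each substituted chromosome on each gene (log2 fold change against B6, points; bars are SEs of the fit), with called effects in filled red. All 8 estimates for each of chromosomes 5, 8 and 17 and all 8 estimates for Fkbp5 lie below 0.

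Fkbp5, the co-chaperone of the receptor, had the most calls. In B6 its level ran from 58.5 to 195 CPM with a median of 128 CPM (n = 20). It ran from 51.5 to 98.8 CPM (median 83.8) in (B6 x B6.A8)F1, from 32.4 to 112 CPM (median 78.7) in (B6.A3 x B6)F1 and from 50.2 to 122.1 CPM (median 87.2) in (B6 x B6.A10)F1. All 8 mice of each of these 3 strains lay below the B6 median, while their ranges overlapped that of B6. Fkbp5 fell by 0.77 on the log2 scale with chromosome 8 (SE 0.22, adjusted p = 0.00403), by 0.75 with chromosome 3 (SE 0.19, adjusted p = 0.0166) and by 0.63 with chromosome 10 (SE 0.21, adjusted p = 0.0432). It also fell by 0.66 with chromosome 17, on which it lies (SE 0.20, adjusted p = 0.0150), where the level ran from 46.3 to 167 CPM (median 91.4) and 17.1% of chromosome 17 genes were called. With chromosome 4 it fell by 0.56 (SE 0.20, adjusted p = 0.0476), with a range of 45.7 to 188.2 CPM (median 99.1). For the remaining chromosomes 5, 6 and 14 the log2 estimates were -0.47, -0.46 and -0.47, which did not pass. Since every estimate is taken against the same B6 mice, the 8 values are not independent, and B6 ranked 3rd of the 24 strains in Fkbp5 level. The chromosome 4 call was lost without mouse E733 (adjusted p = 0.0607), and those for chromosomes 4, 8 and 17 with 10 surrogate variables (adjusted p between 0.105 and 0.519). Without surrogate variables the calls for chromosomes 3 and 4 were lost (adjusted p = 0.0561 and 0.236), and the count filter at 75% of mice ended those for chromosomes 4 and 17 (adjusted p = 0.0703 and 0.0739).

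Tsc22d3 and Sgk1 had a single called main effect each. Sgk1, the kinase, ran from 20.95 to 96.9 CPM (median 35.2) in B6 and from 31.8 to 101.8 CPM (median 57.2) in (B6 x B6.A4)F1. In that CSS 1 of 8 mice lay above every B6 mouse and 2 lay below the B6 median. Sgk1 rose by 0.60 with chromosome 4 (SE 0.16, adjusted p = 0.00572), a 1.51-fold increase, and this call was lost with 10 surrogate variables (adjusted p = 0.435). Tsc22d3 ran from 70.7 to 241.99 CPM (median 163.15) in B6 and from 109 to 153.9 CPM (median 132.2) in (B6 x B6.A8)F1, where all 8 mice lay below the B6 median and within the B6 range. Its called decrease of 0.53 with chromosome 8 (SE 0.21, adjusted p = 0.0424) was lost without mouse E733 (adjusted p = 0.0679), with 0 surrogate variables (adjusted p = 0.389), with 10 (adjusted p = 0.582), with those estimated from the counts as deposited (adjusted p = 0.121) and with the count filter at 75% of mice (adjusted p = 0.734).

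Of the metallothioneins, Mt1 fell with the substitution of their own chromosome, and whether Mt2 was called depended on the settings of the fit. Mt1 ran from 109 to 570.5 CPM (median 276) in B6 and from 75.5 to 216 CPM (median 124.4) in (B6 x B6.A8)F1. All 8 CSS mice lay below the B6 median and 4 lay below every B6 mouse. Mt1 fell by 1.06 (SE 0.26, adjusted p = 0.000528), to 0.481 of its B6 level, and the share of all chromosome 8 genes called was 34.4%. Mt2 ran from 50.3 to 304 CPM (median 127) in B6 and from 31.8 to 123 CPM (median 73.7) in (B6 x B6.A8)F1. All 8 CSS mice again lay below the B6 median, and the estimate of -0.63 (SE 0.30, adjusted p = 0.0874) did not pass. It was called with 0 surrogate variables (-0.88, adjusted p = 0.0116), with 10 (-1.05, adjusted p = 0.00979), with those from the counts as deposited (-0.95, adjusted p = 0.00098) and with the count filter at 75% of mice (-0.78, adjusted p = 0.0227). Because the 2 genes share neither exons nor any stretch of 50 bases, reads of this length could be told apart. In Mt2, however, 254 of 554 such stretches (45.8%) are shared with a gene on the opposite strand, Gm45774, which is not in the table, and the strand setting of the counting is not given in the sources used here. The only other called metallothionein effect was Mt1 with chromosome 14, a decrease of 0.59 (SE 0.23, adjusted p = 0.04996). There Mt1 ran from 49.9 to 339.95 CPM (median 276.95), 2 of 8 mice lay below every B6 mouse and 4 lay below the B6 median. This call was lost without mouse E733 (adjusted p = 0.0506), with DESeq2's size factors (adjusted p = 0.0574), with 0 surrogate variables (adjusted p = 0.351) and with 10 (adjusted p = 0.0874). The log2 estimate for Mt2 with chromosome 14 was -0.01 (SE 0.26). The summed level of the 5 hepatocyte genes in (B6.A14 x B6)F1 ran from 50792.5 to 111994 CPM (median 77246) against a median of 102991 CPM in B6, with 3 of the 5 called lower (Alb, Serpina1a and Cps1), and its part was not tested.

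Igfbp1, the insulin-repressed secreted protein, showed the largest called decreases among these genes. It ran from 56.0 to 693.8 CPM (median 229) in B6, from 67.6 to 208 CPM (median 108) in (B6 x B6.A8)F1 and from 48.6 to 159.6 CPM (median 98.0) in (B6.A6 x B6)F1. All 8 mice of both CSSs lay below the B6 median, with ranges that overlapped that of B6. Igfbp1 fell by 1.40 with chromosome 8 (SE 0.38, adjusted p = 0.00234) and by 1.30 with chromosome 6 (SE 0.35, adjusted p = 0.00977), to 0.380 and 0.405 of the B6 level. Both calls held under each alternative setting of the fit and without mouse E733. The log2 estimates for chromosomes 3 and 14 were -1.02 (SE 0.34, adjusted p = 0.0753) and -0.86 (SE 0.34, adjusted p = 0.0572). Both were called with DESeq2's Wald test (adjusted p = 0.0380 and 0.0451), and that for chromosome 14 also with surrogate variables from the counts as deposited (adjusted p = 0.0397).

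Cdkn1a and Ddit4 had no called main effect with 5 surrogate variables in edgeR. Cdkn1a ran from 3.47 to 41.0 CPM (median 13.03) in B6 and Ddit4 from 2.71 to 60.2 CPM (median 12.6), so that the SEs were large. The lowest adjusted p for Ddit4 was 0.0855, with a log2 estimate of -0.95 (SE 0.43) for chromosome 8, where the level ran from 6.28 to 15.3 CPM (median 8.23) and 7 of 8 mice lay below the B6 median. This decrease was called with 0 surrogate variables (adjusted p = 0.0492), with those from the counts as deposited (adjusted p = 0.0159) and with DESeq2's Wald test (adjusted p = 0.0466). For Cdkn1a the lowest unadjusted p was 0.0275, with a log2 estimate of -0.76 (SE 0.34) for chromosome 10. In Cdkn1a, 301 of 3547 stretches of 50 bases (8.49%) are shared with other genes. A gene on the opposite strand that is not in the table, AC167363.2, overlaps its exons.

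Chromosome 8 had the most calls among the 8 genes, with decreases of Mt1, Tsc22d3, Fkbp5 and Igfbp1, where 29.6% of all genes were called, and 16.7% were called lower. The summed level of the 5 hepatocyte genes was also lower in this strain, at 45222 to 95610.5 CPM (median 67481) against 85662 to 144118 CPM (median 102991) in B6, and 4 of the 5 were called lower, namely Alb, Apoa1, Serpina1a and Cps1. The part of this shift in the results was not tested. In bulk liver, fewer cells of a type and less RNA per cell cannot be told apart.

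Other genes of these pathways were taken from lists written from general knowledge. Of 19 further glucocorticoid targets, 13 passed the joint test (51.4% of all genes), and 23 of 152 combinations (15.1%) were called in main effects, all of them decreases. Of these, 8 were decreases with chromosome 8, where 56.4% of the calls over all genes were decreases. Lcn2, an iron-siderophore binding protein that is also an acute phase gene, fell by 2.23 (adjusted p = 0.000643), and Lpin1, a phosphatidic acid phosphatase of fasting, by 1.49 (adjusted p = 0.000517). The joint adjusted p was 1.28e-06 for Tdo2, a tryptophan-degrading enzyme, and 6.30e-05 for Sult1e1, which inactivates oestrogen. Of 12 genes of hormone supply and receptor function, 10 passed the joint test and 20 of 96 combinations (20.8%) were called. With chromosome 8 the receptor gene Nr3c1 rose by 0.25 (adjusted p = 9.19e-05), as did its co-chaperone Ptges3 by 0.14 (adjusted p = 0.0468). Other chaperones of the receptor, named after their values were seen, fell in the same strain, Hsp90ab1 by 0.22 (adjusted p = 0.00719) and Stip1 by 0.31 (adjusted p = 0.00205). Serpina6, which encodes the corticosteroid carrier of plasma, and Hsd11b1, which regenerates active hormone, had joint adjusted p of 3.42e-07 and 1.29e-06 in the same edgeR test.

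Among 8 genes of metal and redox response, 5 passed the joint test and 13 of 64 combinations (20.3%) were called. With chromosome 8 the zinc importer Slc39a14 fell by 0.55 (adjusted p = 2.34e-05) and heme oxygenase Hmox1 by 0.70 (adjusted p = 0.000653). List genes are named here without marking cis or trans, and 34.4% of the genes on chromosome 8 were called with chromosome 8. Among 11 acute phase genes, which encode mostly plasma proteins of inflammation, 10 passed the joint test and 18 of 88 combinations (20.5%) were called. With chromosome 4, 7 were called higher, beside 13.5% of all genes called in any direction. With chromosome 8, 4 were called lower and 1 higher, and with chromosome 14, 4 were called lower. Serum amyloid genes Saa2 and Saa1 rose by 2.84 (adjusted p = 0.000432) and 2.004 (adjusted p = 0.0117) with chromosome 4. Sgk1 rose in the same strain, and a link was not tested. Of 14 genes of fasting and FOXO control, 10 passed the joint test and 16 of 112 combinations (14.3%) were called, among them Ppargc1a, a coactivator of gluconeogenesis, which fell by 0.84 with chromosome 8. Of 13 p53 targets, the genes that share a regulator with Cdkn1a, 7 passed the joint test but only 2 of 104 combinations (1.92%) were called. Of 16 clock genes 10 passed the joint test, and of 8 immediate early genes 2. No list test was made, and these shares are descriptions beside 51.4% and 11.1% of all genes.

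The second question of the design was whether the effect of a chromosome depends on another chromosome. An interaction is the log2 difference between a double CSS and the sum of both main effects, and A6:A8 denotes that of (B6.A6 x B6.A8)F1. In the joint test of the 15 interactions, 5 of the 8 genes passed, beside 27.4% of all genes. The adjusted p was 0.00312 for Ddit4, 0.00452 for Igfbp1, 0.0101 for Fkbp5, 0.0168 for Sgk1 and 0.0180 for Mt1. Cdkn1a (adjusted p = 0.0593), Tsc22d3 (adjusted p = 0.118) and Mt2 (adjusted p = 0.360) did not pass. Cdkn1a passed when any of the 6 double CSS mice E224, E232, E501, E679, E708 and E732 was left out (adjusted p down to 0.0249). Of 120 single interactions, 8 (6.67%) were called, beside 5.96% of all combinations. All 8 were positive and opposite in sign to the sum of the main effects. Of the called interactions of all genes, 99.8% had this opposite sign and 56.2% were positive.

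**Figure D3:**
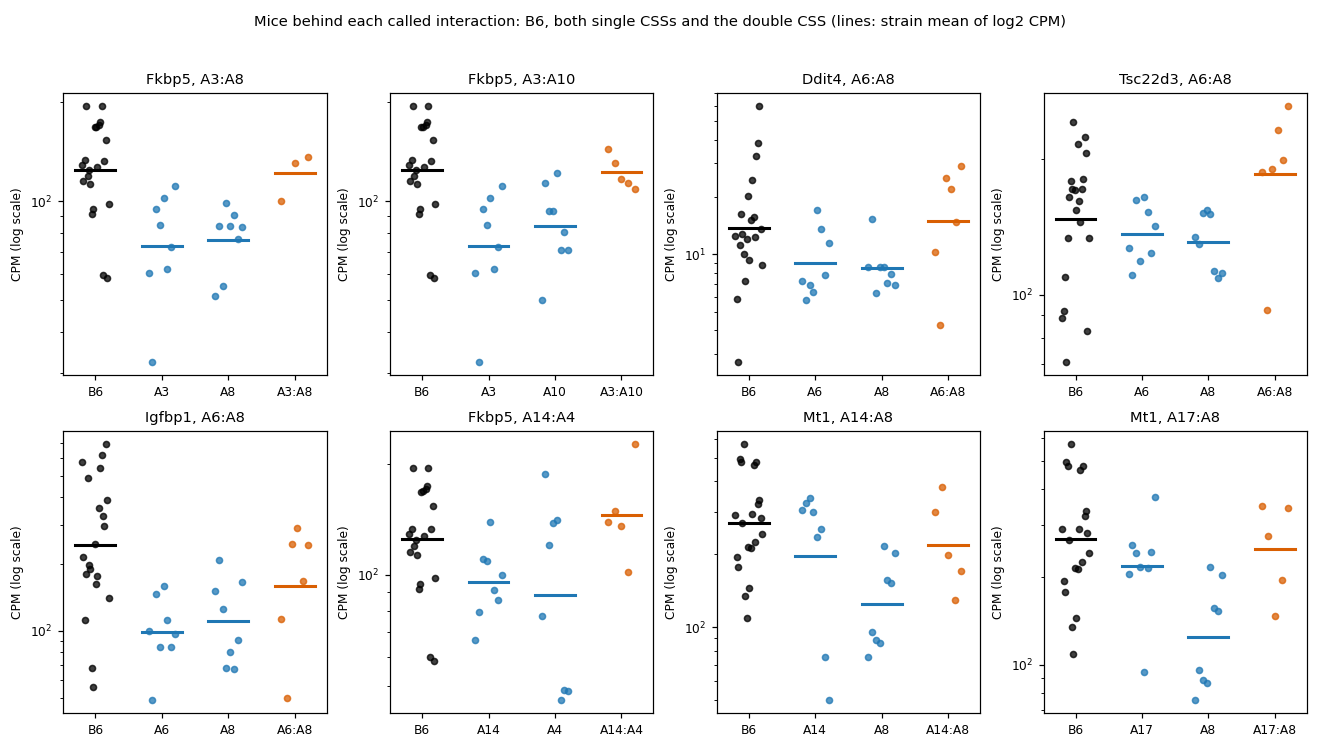
Level in every mouse (points, CPM on a log10 axis) of B6, both single CSSs and the double CSS for the called interactions, with strain means. In (B6.A6 x B6.A8)F1, the Igfbp1 median of 205 CPM lies near the B6 median of 229 CPM, whereas the single CSSs have medians of 98.0 and 108 CPM.

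In (B6.A6 x B6.A8)F1 (n = 6) 3 genes had a called interaction. Igfbp1 ran from 49.8 to 291 CPM (median 205), and both single CSSs had lower medians. The sum of the main effects was -2.70, the interaction was 2.26 (SE 0.55, adjusted p = 0.00099), and the fitted double CSS differed from B6 by -0.44. Ddit4 ran from 4.23 to 29.0 CPM (median 18.4), against medians of 7.51 and 8.23 CPM in the single CSSs, and had an interaction of 2.13 (SE 0.63, adjusted p = 0.00705) with a main effect sum of -1.63. Tsc22d3 ran from 92.3 to 263 CPM (median 195), with an interaction of 1.11 (SE 0.31, adjusted p = 0.00414) and a main effect sum of -0.90. All 3 calls held when each of the 6 mice was left out in turn. That of Tsc22d3 was lost with 0 surrogate variables (adjusted p = 0.0921), with 10 (adjusted p = 0.110) and with the count filter at 75% of mice (adjusted p = 0.151). In this cross 24.8% of all genes had a called interaction. Sgk1 ran from 25.9 to 67.5 CPM (median 52.6) there, and its interaction of 0.64 (SE 0.26, adjusted p = 0.0620) did not pass.

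Fkbp5 had 3 called interactions. In the 3 mice of (B6.A3 x B6.A8)F1 its level was 100.6, 130.6 and 136.5 CPM, within the B6 range, whereas all mice of both single CSSs lay below the B6 median. The interaction A3:A8 was 1.40 (SE 0.36, adjusted p = 0.00873) with a main effect sum of -1.52, and leaving out E689, 1 of the 3 mice, ended the call (adjusted p = 0.0729). In (B6.A3 x B6.A10)F1 the level was 143.97, 131.001, 117.3, 113.7 and 109.0 CPM, and A3:A10 was 1.15 (SE 0.32, adjusted p = 0.0417) with a sum of -1.38. This call held in 3 of 5 fits with a mouse left out and was lost without E394 or E395. In (B6.A14 x B6.A4)F1 the level was 139.25, 149.5, 135.5, 101.8 and 226.6 CPM, and A14:A4 was 1.24 (SE 0.35, adjusted p = 0.0230) with a sum of -1.03. The highest of all mice, E744, was among these 5, and the call was lost without it (adjusted p = 0.0966). It was also lost when the whole fit was repeated without E733 (adjusted p = 0.0518). The call held when E733 was left out with dispersions and surrogate variables kept. The share of all genes called was 7.56% in A3:A8, 1.17% in A3:A10 and 4.63% in A14:A4. With 10 surrogate variables A3:A8 and A14:A4 were not called (adjusted p = 0.203 and 0.220).

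Mt1 had 2 called interactions, both with its own chromosome. In (B6.A14 x B6.A8)F1 the level was 298.8, 377.3, 198.9, 128.9 and 170.1 CPM, and A14:A8 was 1.19 (SE 0.39, adjusted p = 0.0112) with a main effect sum of -1.65. In (B6.A17 x B6.A8)F1 the level was 351.1, 275.3, 147.4, 194.5 and 343.8 CPM, and A17:A8 was 1.30 (SE 0.39, adjusted p = 0.0225) with a sum of -1.48. Both strains had mice above and below the B6 median of 276 CPM. A14:A8 held without each of its 5 mice, whereas A17:A8 was lost without E146 or E16 (adjusted p up to 0.0603), and both were lost with 10 surrogate variables (adjusted p = 0.0531 and 0.127). For Mt2 the log2 estimates were 0.23 (SE 0.46) in A14:A8 and 0.76 (SE 0.46) in A17:A8, and neither passed, although A17:A8 was called with surrogate variables from the counts as deposited (adjusted p = 0.0464). Of all genes 32.4% were called in A14:A8 and 8.68% in A17:A8, and of genes on the substituted chromosomes 33.3% and 7.42%.

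Cdkn1a, Mt2 and Sgk1 had no called interaction, although Sgk1 passed the joint test. The Cdkn1a interaction with the lowest unadjusted p was A17:A10, at 1.72 (SE 0.54, adjusted p = 0.142), which was called when mouse E501 was left out (adjusted p = 0.0449). It was also called with surrogate variables from the counts as deposited (adjusted p = 0.0434). Sgk1 A6:A8 was called without E297 (adjusted p = 0.0308), with 0 or 10 surrogate variables (adjusted p = 0.0222 and 0.0172), with those from the counts as deposited (adjusted p = 0.0131) and with the count filter at 75% of mice (adjusted p = 0.0360).

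The third question was whether these genes vary together between mice of the same strain, where every mouse has the same substituted chromosomes. Each log2 CPM value was expressed as its deviation from the strain mean, and correlations were taken over all mice of the 24 strains with 100000 two-sided permutations of mice within strains. Of 28 gene pairs, 19 passed a Benjamini-Hochberg adjusted p of 0.05, 18 of them with r above 0. The median r over all 28 was 0.25, and the lowest called r above 0 was 0.19 (Mt1 with Fkbp5). Random pairs of genes with a mean log2 CPM of at least 2 had a median absolute r of 0.12. The share of such pairs that would pass was not determined, so the count cannot be read as particular to these genes. Of the 19, 17 also passed with Spearman's rho. Since the counts of a mouse come from a single library, shared properties of that library enter every pair.

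**Figure D4:**
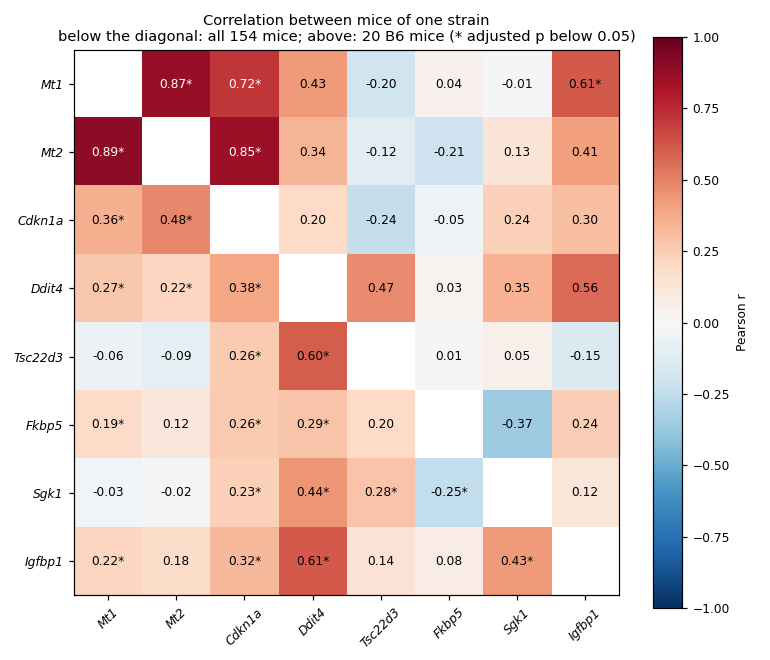
Pearson r of within-strain deviations of log2 CPM for each pair of genes, over all mice below the diagonal and over the 20 B6 mice above it, with a star where the adjusted p is below 0.05. Over all mice, the metallothionein pair (0.89) and the group of Ddit4 with Igfbp1 (0.61), Tsc22d3 (0.60) and Sgk1 (0.44) stand out, Mt2 with Cdkn1a has 0.48, and Fkbp5 with Sgk1 is the only called negative pair (-0.25).

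Mt1 and Mt2 had by far the highest correlation, with r = 0.89 and rho = 0.89 (permutation p = 1e-05, the smallest these permutations can give, adjusted p = 3.5e-05). It was positive in each of the 10 strains with at least 6 mice, from 0.71 to 0.995, and 0.88 without the 2 mice farthest from the median of Mt1. Ddit4, the mTORC1 inhibitor, was next, with r = 0.61 to Igfbp1 (rho = 0.59) and r = 0.60 to Tsc22d3 (rho = 0.60). Both pairs had permutation p = 1e-05 and adjusted p = 3.5e-05. The former was positive in 10 of 10 larger strains and the latter in 9. Sgk1 correlated with Ddit4 (r = 0.44, rho = 0.38) and with Igfbp1 (r = 0.43, rho = 0.42), at permutation p = 1e-05 and adjusted p = 3.5e-05. The former pair was positive in 8 of 10 larger strains and the latter in 10. Without the 2 farthest mice these 4 pairs had r between 0.41 and 0.67. Of all 28 pairs, only 3 were positive in each of the 10 larger strains. The called pairs Mt1 with Igfbp1, Mt2 with Ddit4 and Tsc22d3 with Sgk1 were positive in 5 of 10. Their lowest r in a strain was -0.93, -0.61 and -0.56.

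**Figure D5:**
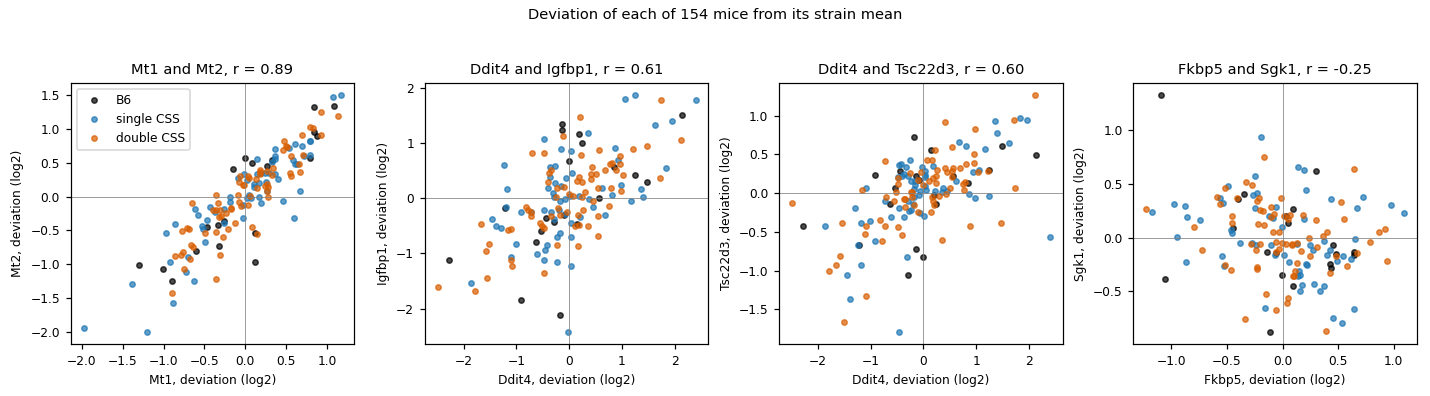
Within-strain deviations of log2 CPM of selected gene pairs, each point a mouse. The points of Mt1 and Mt2 follow a narrow diagonal (r = 0.89), those of Ddit4 and Igfbp1 a broad one (r = 0.61), and those of Fkbp5 and Sgk1 lean the other way (r = -0.25).

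Cdkn1a, the cell cycle inhibitor, correlated with Mt2 at r = 0.48 (rho = 0.45), with Ddit4 at 0.38 (rho = 0.36) and with Mt1 at 0.36 (rho = 0.32), each with permutation p = 1e-05 and adjusted p = 3.5e-05. The correlation of Cdkn1a with Mt1 was 0.17 after the 5 surrogate variables were removed (permutation, adjusted p = 0.0806). In the 20 B6 mice alone 4 pairs passed, namely Mt1 with Mt2 (r = 0.87), Mt2 with Cdkn1a (r = 0.85), Mt1 with Cdkn1a (r = 0.72) and Mt1 with Igfbp1 (r = 0.61). Over all mice again, the other called positive pairs had r between 0.19 and 0.32. Tsc22d3 and Sgk1 had r = 0.28 (rho = 0.31, permutation p = 0.00534, adjusted p = 0.0106). Tsc22d3 and Fkbp5 had r = 0.20 (rho = 0.19, permutation p = 0.0458, adjusted p = 0.0611), and Fkbp5 and Sgk1 had r = -0.25 (rho = -0.28, permutation p = 0.00647, adjusted p = 0.0113). The negative pair was -0.23 without the 2 farthest mice, was above 0 in only 1 of 10 larger strains, and had an adjusted p of 0.0894 after the surrogate variables were removed. Tsc22d3 had r = -0.06 to Mt1 and -0.09 to Mt2.

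In 7 mice all 8 genes lay above their strain mean and in 7 mice all 8 lay below it. Mouse E744 of (B6.A14 x B6.A4)F1 was the highest of all in Cdkn1a (51.7 CPM), Ddit4 (117.02 CPM), Tsc22d3 (308 CPM) and Fkbp5 (227 CPM), but ranked 55th in Mt1 and 51st in Mt2. Its strain was uneven. The other 4 mice had 4.69, 9.35, 74.99 and 35.7 CPM of Ddit4 and 116.6, 40.2, 97.9 and 240.6 CPM of Tsc22d3. Mouse E733 of the same strain was the highest in Mt1 (587 CPM), 2nd in Mt2 and 3rd in Ddit4. (B6.A17 x B6.A10)F1 had the highest mean of both metallothioneins, with 265, 553, 519.7 and 581 CPM of Mt1, and (B6.A3 x B6.A8)F1 the lowest, with 124.2, 97.1 and 146.9 CPM.

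Genes whose deviations were most like those of each gene were sought among 9616 genes with a mean log2 CPM of at least 2, as a description over all mice. For Mt1 these were Mt2 (0.89), Serpina3m (0.60) and Cyp3a13 (0.59), and for Mt2 they were Mt1, Serpina3m (0.57) and Cyp3a13 (0.56). For Ddit4 they were Cebpd (0.78), E230001N04Rik (0.74) and Nfkbia (0.68). Cebpd encodes a transcription factor and Nfkbia an inhibitor of NF-kappaB, and both are known glucocorticoid targets. For Igfbp1 they were Tat (0.70), Cebpd (0.66) and Frmd4b (0.65), where Tat encodes the classical glucocorticoid-induced tyrosine aminotransferase. For Sgk1 they were a gene without a symbol in the tables used (ENSMUSG00000029333, 0.70), G6pc (0.69) and Sik1 (0.61), of which G6pc encodes glucose-6-phosphatase, the last enzyme of glucose output. For Tsc22d3 they were Tcim (0.72), Ppp1r3b (0.70) and E230001N04Rik (0.66). For Fkbp5 they were Il6ra (0.75), Rhobtb1 (0.74) and Lpin1 (0.74). For Cdkn1a they were Slc45a3 (0.75), Clpx (0.74) and Trim2 (0.69).

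Some of the listed glucocorticoid targets had an r of at least 0.5 to these genes. Of the 17 targets at this mean level, 5 reached it with Ddit4, 4 with Tsc22d3, 4 with Igfbp1, 2 with Fkbp5, and 1 each with Mt1 and Mt2, whereas none did with Cdkn1a or Sgk1. Of all genes compared, 0.322% reached it with Ddit4, 0.468% with Tsc22d3, 0.426% with Igfbp1, 0.697% with Fkbp5 and 0.114% with Mt1. None of the listed genes of hormone supply and receptor function and none of the listed metal response genes reached it with any of the 8.

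Library and tissue measures were set beside the 8 genes. The 8 genes were tested against log2 library size, the share of mitochondrially encoded genes (4.61% to 20.8% of counts) and the summed log2 CPM of erythroid genes. In these 24 tests none passed after adjustment and 4 had an unadjusted permutation p under 0.05. The largest r was 0.25, between Mt1 and the erythroid genes (permutation, adjusted p = 0.0742). As a description, r was also taken with the sum of the log2 CPM values of a marker list, which is not the sum of its CPM. For the leukocyte markers, whose summed CPM was 10.9 to 49.2, r was 0.44 with both Mt1 and Mt2 and -0.30 with Tsc22d3. Only 1 of these markers had a mean log2 CPM of at least 2. By itself it had r = -0.12 with Mt1, -0.10 with Mt2 and -0.13 with Tsc22d3, so the sum does not stand for every marker. By the same sum of log2 CPM, the hepatocyte markers had r = 0.32 with Mt1. The stellate markers, whose summed CPM was 224.5 to 398, had r = -0.39 with Fkbp5. Their part in the correlations between genes was not tested.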

How the data were processed

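Liver RNA of single mice was measured by stranded total RNA sequencing with single-end reads. In the authors' pipeline, TopHat2 placed reads on mm10, reads left over were placed on an A/J version of that genome, HTSeq-count gave the number per gene, and low genes were dropped. The deposited values are the resulting raw counts for 13289 genes, without normalization. Each sample is a separate mouse and was grouped by its strain label. Here the counts were scaled by TMM and fitted with edgeR (version 4.0.16, R version 4.3.3), using its quasi-likelihood F-test with legacy=TRUE on all genes. The model had terms for 8 chromosomes, their 15 crosses and 5 surrogate variables (svaseq, sva version 3.50.0). Cis and trans genes were adjusted separately by Benjamini-Hochberg in each effect, and joint tests over all genes, at 0.05. All adjusted p-values of effects come from this fit, and intervals or SEs are those of the fit. Within-strain correlations were computed with numpy (version 2.4.6) from log2 CPM with a prior count of 2, without surrogate variables. Positions came from GENCODE vM21 (13242 genes), and promoter sequences from RefSeq. Named were all 8 genes, the 3 genes of highest within-strain r to each and, for each list, up to 4 genes with the lowest joint p. Other names were chosen after their values were seen. The genes and lists were chosen with earlier results of these data known. The fit and the correlation test were tested on simulated data. The settings varied were the number of surrogate variables (0 or 10) and their source, legacy=FALSE, DESeq2 (version 1.42.0) for size factors or for its Wald test, a filter of at least 15 counts in 75% of mice, adjustment without the cis split, and, for correlations, scaling, prior count, rank and strains. Chosen after seeing the data was leaving out mouse E733, with the whole fit repeated. Each double CSS mouse was left out in turn, with dispersions and surrogate variables kept.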

Additional observations from a re-analysis of the deposited data

Results flagged for a closer look

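In 16 combinations of gene and strain, 9.09% of those with 4 to 10 mice, the highest or lowest mouse stood apart from the others in log2 CPM by Dixon's criterion, which chance alone meets in about 1 in 20. Both metallothioneins were low in the same mouse of (B6.A17 x B6)F1, E268, with 6.56 for Mt1 and 4.81 for Mt2, and the next mice had 7.68 and 6.70. In (B6.A17 x B6.A10)F1 Mt1 was low in E501 with 8.05. In (B6.A3 x B6)F1, E530 was high in both Mt2 with 8.46 and Ddit4 with 6.06, and the next mice had 6.97 and 4.02. In (B6.A3 x B6.A5)F1, E67 was high in Mt2 with 7.16 and low in Fkbp5 with 5.45. Ddit4 was also high in E117 of (B6 x B6.A8)F1 with 3.95 and low in E73 of (B6.A6 x B6.A5)F1 with 2.05. Tsc22d3 was low in 3 double CSS mice, E297 of (B6.A6 x B6.A8)F1 with 6.53, E290 of (B6.A14 x B6.A10)F1 with 6.56 and E22 of (B6.A17 x B6.A5)F1 with 6.47. Fkbp5 was high in E642 of (B6.A6 x B6.A4)F1 with 6.81. Igfbp1 was high in E138 of (B6.A14 x B6)F1 with 9.31, in E586 of (B6.A17 x B6)F1 with 9.40 and in E394 of (B6.A3 x B6.A10)F1 with 8.09.

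The effect of a chromosome differed with the other chromosome in 8 tests of the difference itself, the interactions called by edgeR's quasi-likelihood test. On the log2 scale these were 2.26 for Igfbp1, 2.13 for Ddit4 and 1.11 for Tsc22d3 in A6:A8, 1.40, 1.15 and 1.24 for Fkbp5 in A3:A8, A3:A10 and A14:A4, and 1.19 and 1.30 for Mt1 in A14:A8 and A17:A8.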

How the results depend on the processing

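The number and the source of the surrogate variables moved the counts of calls. With 10, 6 main effects and 4 interactions of the 8 genes were called in place of 11 and 8, and the shares over all genes fell from 11.1% to 4.25% and from 5.96% to 1.23%. For the joint interaction test the share over all genes fell from 27.4% to 9.80%. With surrogate variables from the counts as deposited, 15 interactions were called, beside 8.96% of all combinations. With 0, 9 main effects and 8 interactions were called. DESeq2's Wald test called 14 and 8. Without mouse E733, 8 and 7 were called. When each double CSS mouse was left out in turn, the interactions called numbered 7 to 9, the genes with a joint interaction difference 5 to 6 and those with a joint strain difference 6 to 8. Of the within-strain pairs, 15 to 19 were called over the alternatives for all strains, and 4 in B6 alone, which has fewer mice (n = 20). There r was -0.24 for Cdkn1a with Tsc22d3 and -0.048 for Cdkn1a with Fkbp5, opposite in sign to that over all strains, and the cause was not tested. No paired analysis was possible because replicate numbers are names in accession order and pair no mice. Strains of 3 to 6 mice and the wide spread of Ddit4, Igfbp1 and Cdkn1a limit what the interactions can resolve, and intervals cover the fit only.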

Other observations

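The log2 ratio of Mt1 to Mt2 was 1.03 on average over all mice (SD 0.33). It was 1.16 in B6, where it ran from 0.58 to 2.26, and 0.54 in (B6.A14 x B6)F1, where it ran from 0.37 to 0.69 (n = 8). In the double CSSs with chromosome 14 the strain means were 1.06 to 1.21. The part of the Mt2 exons that overlaps Gm45774 enters this ratio, and its part was not tested.

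Of 14 clock genes at a mean log2 CPM of at least 2, 1 had an r of at least 0.5 to Cdkn1a within strains and 4 an r of -0.5 or lower, with a median r of -0.29 over the list. Over all mice r was 0.64 for the activator Arntl and -0.69, -0.68, -0.62 and -0.61 for Dbp, Nr1d2, Per3 and Tef, which were named after their values were seen. Among all genes compared, 0.416% had an r of at least 0.5 to Cdkn1a and 0.395% had an r of -0.5 or lower. The time at which each mouse was killed is not given in the sources used here. Of 10 p53 targets at this mean level, 1 had an r of at least 0.5 to each of Cdkn1a, Ddit4 and Tsc22d3, namely Trp53inp1, a p53-induced nuclear protein. The median r over the list was 0.056, 0.14 and 0.0080. With Igfbp1, Btg2 and Sesn2 reached an r of 0.5, and the list median was 0.032. Among all genes compared, 0.322% reached it with Ddit4, 0.468% with Tsc22d3 and 0.426% with Igfbp1.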
